A study of Mus musculus with 8 samples.

Results

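Lymphocytes reach the esophagus from blood and nearby lymphoid tissue, and 10 genes that mark them were followed here in esophagi of mice lacking monoacylglycerol lipase (MGL). The genes were chosen by symbol, as textbook markers of T cells (Cd3e, Cd3g, Cd4, Cd8a), of B cells (Ms4a1, Cd79a) and of antibody production (Ighm, Igha, Igkc, Jchain). They are 10 of the 32849 genes in the count table. All 10 had reads, and 6 of them (Ms4a1, Cd79a and the 4 antibody genes) passed the filter on low counts and were tested.

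The series compared 4 MGL KO libraries with 4 MGL WT libraries (WT below), each made from poly(A) RNA of frozen esophagus tissue of healthy, untreated mice. MGL, the product of Mgll, is a hydrolase that degrades the endocannabinoid 2-arachidonoylglycerol. The study asked if a fall in MGL follows inflammation or could promote eosinophilic esophagitis by itself. Here the question was which genes differ at baseline. The study describes the deletion as global, and its methods state that the KO mice were bred in-house with WT littermates. The methods say of the mouse experiments in general that young adults of both sexes were used, and the study counts 4 esophagi per genotype. No label gives the sex or age of a library or ties it to an animal, so the p-values measure only the spread between libraries. Mgll itself lay between 12.6 and 16.0 CPM in MGL KO and between 66.6 and 88.3 CPM in WT, where CPM are library-size-scaled counts after TMM normalization. It was lower in all 4 MGL KO libraries (log2 fold change -2.57, SE 0.13, adjusted p = 0.000133, edgeR's quasi-likelihood test), as the labels say.

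Each library held between 13479069 and 17090152 counts, so that a count of 0 allows a level of up to 3 counts, or 0.167 to 0.271 CPM. Squamous epithelium (Krt4, Krt13 and others, summed 4704 to 18757 CPM) and skeletal muscle (Acta1, Myh1 and others, 35910 to 84904 CPM) were present in all 8 libraries, as the tissue label says. A pair of libraries stood apart for the genes described here, and the fits of the 6 tested genes and of the lymphocyte lists with more than 1 tested gene are given with and without them. In WT replicate 1 the summed leukocyte markers (Ptprc, Coro1a and 6 others) were at 353 CPM, against 60.6 to 153 CPM in the other 7 libraries. In MGL KO replicate 4 the summed markers of airway secretory cells and glands (Scgb1a1, Bpifa1, Ltf and 6 others) were at 11569 CPM, against 1.64 to 71.7 CPM elsewhere. The summed markers of airway ciliated cells (Foxj1, Dnah5 and 8 others) were at 624 CPM in that library, against 12.1 to 18.3 CPM elsewhere. Y-linked genes were present in all 8 libraries, and nothing in the labels marks either library.

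A T cell recognizes antigen through a receptor whose signal is carried by the CD3 chains, with CD4 or CD8 as coreceptor. A B cell carries membrane antibody whose signal is carried by CD79a and CD79b. Once it becomes a plasma cell it secretes antibody, first IgM and, after class switching, IgG, IgA or IgE. IgM and IgA are joined into polymers by the J chain, and at mucosal surfaces the polymeric immunoglobulin receptor, the product of Pigr, carries these polymers across glandular and intestinal epithelium. Each B cell clone assembles its antibody from a heavy chain variable segment (Ighv) and a light chain variable segment (Igkv or Iglv), and the promoter of the assembled gene lies upstream of the variable segment. That promoter is known for an octamer, ATGCAAAT on either strand, which binds Oct factors and their B cell coactivator, the product of Pou2af1.

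The sequences upstream of the variable segments with the most reads in WT replicate 1 and MGL KO replicate 4 are shown first, since the promoter of an antibody gene lies there. Each is 60 bases long, read from GRCm39 on the strand of the gene, with the best match to the octamer (ATGCAAAT or its reverse complement ATTTGCAT) in capitals. Ighv7-3, which led the heavy chain segments in WT replicate 1, is at chr12:114117364-114117423 on the minus strand. Ighv10-1, which led in MGL KO replicate 4, is at chr12:114443159-114443218, also on the minus strand. Igkv1-117, the leading kappa segment of WT replicate 1, is at chr6:68097930-68097989 on the plus strand. Igkv12-46, the leading kappa segment of MGL KO replicate 4, is at chr6:69742043-69742102 on the minus strand. Iglv1, the leading lambda segment in both, is at chr16:18904282-18904341 on the minus strand.
Ighv7-3: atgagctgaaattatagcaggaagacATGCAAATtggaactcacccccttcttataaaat
Ighv10-1: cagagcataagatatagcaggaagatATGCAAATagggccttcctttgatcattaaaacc
Igkv1-117: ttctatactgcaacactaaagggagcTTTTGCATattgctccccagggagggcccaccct
Igkv12-46: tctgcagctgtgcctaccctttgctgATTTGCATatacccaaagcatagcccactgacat
Iglv1: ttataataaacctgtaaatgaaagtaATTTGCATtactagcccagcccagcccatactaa

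The octamer was complete in 4 of these 5 sequences, and Igkv1-117 differed from it by A1T, counted from 1 at the 5′ end of ATTTGCAT. Between 57 and 125 bases separated it from the annotated start of the gene. Searched on both strands of the 200 bases upstream of each annotated gene start, it was found at 61.8% of the 76 listed Ighv segments and at 64.0% of the 136 listed Igkv segments. The share over all 21747 protein-coding genes was 1.30%. None of the 7 protein-coding genes of the 10 held it in this window. Of the 30 Ighv segments with at least 3 reads in WT replicate 1, 90.0% had the octamer, against 43.5% of the 46 with fewer reads. For Igkv the shares were 72.4% of 76 and 53.3% of 60. These shares describe letters in a window and no binding.

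Antibody genes were the most variable of the 10, and their RNA was concentrated in 1 library of each genotype. WT replicate 1 was rich in IgM and MGL KO replicate 4 in IgA, and both held far more Igkc and Jchain than any other library. The summed level of Ighm, Igha, Igkc and Jchain was 83.0, 25.4, 29.6 and 850 CPM in MGL KO replicates 1 to 4, and 5457, 31.6, 9.07 and 39.9 CPM in WT replicates 1 to 4. The reads of these 4 genes were 0.590% of all counts in WT replicate 1 and 0.0927% in MGL KO replicate 4. The other 6 libraries had from 0.000854% to 0.00826%. The sum did not separate the genotypes, since the 3 lower libraries of each overlapped. In bulk RNA, fewer cells of a type and less RNA per cell cannot be told apart.

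**Figure D1:**
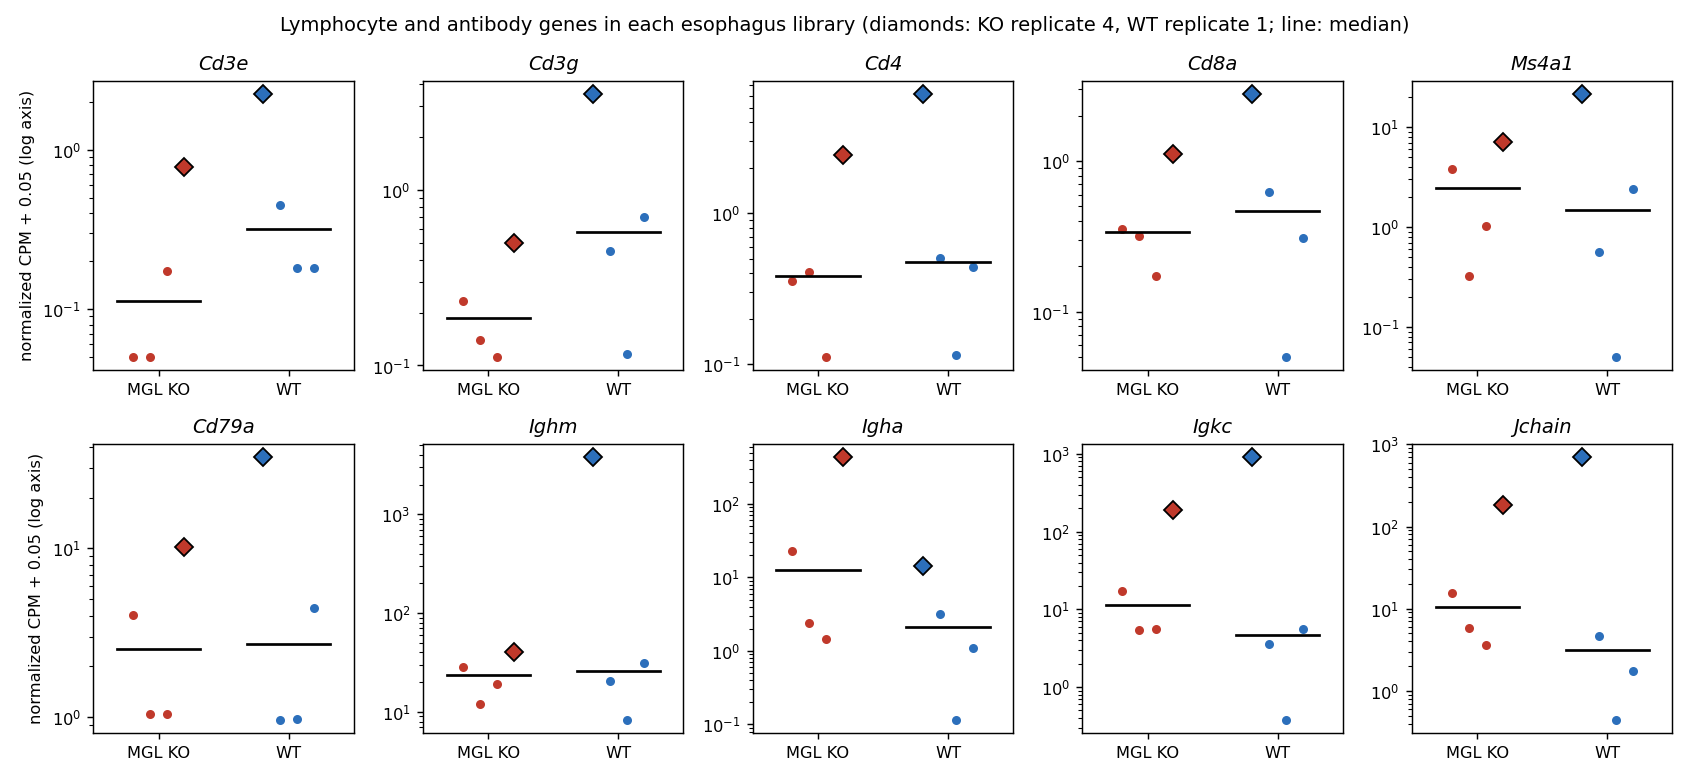
Level of each of the 10 genes in each library, as normalized CPM plus 0.05 on a log axis that differs between panels. Each point is 1 library (4 MGL KO in red, 4 WT in blue), diamonds are MGL KO replicate 4 and WT replicate 1, and lines are group medians. WT replicate 1 is the highest library for 9 of the 10 genes, MGL KO replicate 4 for Igha, and the groups overlap for all 10.

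Ighm, on chromosome 12 (113382178 to 113386350, minus strand, GRCm39), encodes the constant region of IgM. It was at 28.2, 12.0, 19.2 and 40.0 CPM in MGL KO, and at 3821, 20.4, 8.28 and 31.6 CPM in WT. A single WT library was therefore at 121 times the next WT library and at 95.5 times the highest MGL KO library, while the other 3 WT values lay within the range of MGL KO or below it. The log2 fold change of -5.28 (SE 1.92) in MGL KO had an unadjusted p of 0.0227 and an adjusted p of 0.523 in edgeR's quasi-likelihood test. Without WT replicate 1 it was 0.31, and without that library and MGL KO replicate 4 it was -0.02 (SE 0.48).

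Igha, the constant region of IgA, lies in the same locus (chromosome 12, 113218450 to 113223856, minus strand). Its level was 22.5, 2.35, 1.42 and 437 CPM in MGL KO, and 14.3, 3.08, 0.0657 and 1.04 CPM in WT. MGL KO replicate 4 was at 19.4 times the next MGL KO library and 30.6 times the highest WT library, while the remaining 3 MGL KO values ran from 1.42 to 22.5 CPM. The log2 fold change of 4.62 (SE 1.86) had an unadjusted p of 0.0345 and an adjusted p of 0.550. It was 0.92 without MGL KO replicate 4, 6.33 without WT replicate 1, and 2.63 (SE 1.24, adjusted p = 0.742) without both. Igha was thus higher in MGL KO in each of these fits, and in none of them past the threshold.

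Igkc, the constant region of kappa light chains (chromosome 6, 70703419 to 70703950, plus strand), is used by IgM, IgG and IgA alike. It was at 17.0, 5.32, 5.49 and 191 CPM in MGL KO, and at 917, 3.54, 0.329 and 5.61 CPM in WT. Both high libraries of the heavy chains were high here too, WT replicate 1 at 163 times and MGL KO replicate 4 at 11.3 times the next library of their group. With all libraries the log2 fold change was -2.08 (SE 2.02, adjusted p = 0.772). It turned to 4.11 without WT replicate 1 (unadjusted p = 0.0297, adjusted p = 0.736), stayed negative at -4.63 without MGL KO replicate 4 and was 1.55 without both. Igkc lies 17.9 Mb from Mgll on the same chromosome, and 97.9% of its exon bases are shared with an antisense RNA, Gm68839. The use of strand in the counting is not given in the sources used here, so reads of both genes cannot be told apart.

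Jchain, the joining chain of polymeric IgM and IgA (chromosome 5, 88667668 to 88675750, minus strand), is made by plasma cells. Its values were 15.3, 5.78, 3.51 and 182 CPM in MGL KO, and 704 CPM in WT replicate 1 against 4.57, 0.394 and 1.70 CPM in WT replicates 2 to 4. The order of the libraries was close to that of Igkc. The log2 fold change was -1.78 (SE 2.01, adjusted p = 0.799) with all libraries, 4.51 (unadjusted p = 0.0235, adjusted p = 0.726) without WT replicate 1, -4.43 without MGL KO replicate 4 and 1.87 without both. Without WT replicate 1 and MGL KO replicate 4, the 3 remaining MGL KO libraries lay between 3.51 and 15.3 CPM and the 3 remaining WT libraries between 0.394 and 4.57 CPM.

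The heavy chain classes separated WT replicate 1 from MGL KO replicate 4. Of 70574 reads on the 7 listed heavy chain constant regions in WT replicate 1, 97.1% were Ighm (95% Wilson interval 96.9% to 97.2%) and 0.363% were Igha (0.321% to 0.410%). Of 9454 such reads in MGL KO replicate 4, 82.2% were Igha (81.4% to 82.9%) and 7.53% were Ighm. MGL KO replicate 1, with 1044 reads, held 35.2% Igha (32.4% to 38.2%) and 44.1% Ighm. In the other 5 libraries, with 143 to 594 reads each, Ighm took between 67.9% and 88.1%. The intervals cover counting error only, and shares are of reads and not per length. Ighg1, an IgG constant region, was not in the count table, so all these shares leave it out. Per kilobase of exon the Igha share was 77.1% in MGL KO replicate 4 and 0.258% in WT replicate 1.

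The share of Igha was 34.3% ± 34.2 (SD, n = 4) in MGL KO and 3.78% ± 5.16 (SD, n = 4) in WT. The MGL KO libraries ranged from 6.42% to 82.2% and the WT libraries from 0.363% to 11.4%, so the groups overlapped. The difference of 30.5 percentage points had p = 0.0571 in a two-sided exact permutation test over the libraries, whose smallest possible p is 0.0286. Without MGL KO replicate 4 the difference was 14.5 percentage points, and without WT replicate 1 it was 29.4. Over the MGL KO libraries, those with the highest Igha share, replicates 4 and 1, were also those with the highest summed airway secretory markers (11569 and 71.7 CPM against 2.17 and 2.65 CPM). The part of that tissue in the Igha values was not tested.

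**Figure D2:**
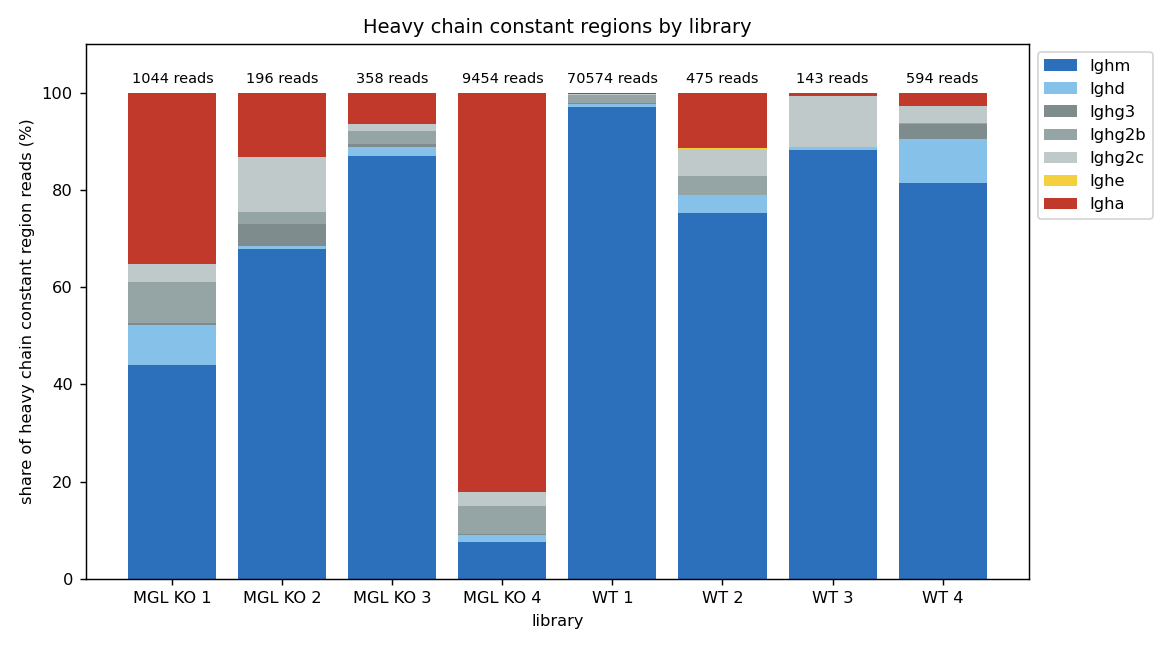
Share of each heavy chain constant region in the reads of the 7 listed heavy chain genes, in percent, for each library. Bars are stacked from 0 and the number above a bar is its read total. Igha (red) takes 82.2% in MGL KO replicate 4 and 0.363% in WT replicate 1, where Ighm (dark blue) takes 97.1%.

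Kappa was the main light chain wherever reads allowed a share. Igkc took 92.0% of 17853 light chain constant region reads in WT replicate 1 and 96.8% of 3515 in MGL KO replicate 4. By variable segments the lambda share was larger, with 4380 Iglv against 15589 Igkv reads in WT replicate 1. In MGL KO replicate 4 these were 232 and 2546 reads, so the kappa share depends on the region counted. The lambda genes Iglc2 and Iglc3 are close copies, and the split of reads between them is uncertain. Jchain amounted to 17.9 reads per 100 heavy chain reads in WT replicate 1 and 34.2 in MGL KO replicate 4. In MGL KO replicates 1 to 3 it was between 15.9 and 32.7, and in WT replicates 2 to 4 between 4.20 and 16.8. Against Cd79a, a B cell membrane gene, the ratio was 2021 Jchain reads per 100 in WT replicate 1 and 1794 in MGL KO replicate 4, with a range of 38.8 to 582 over the remaining 6.

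Reads covered many variable segments in WT replicate 1 and fewer, with other leaders, in MGL KO replicate 4. In WT replicate 1, 30 of the 76 listed Ighv segments had at least 3 reads (4505 reads in all), and Ighv7-3 led with 18.4% (95% Wilson interval 17.3% to 19.6%), followed by Ighv1-53 with 17.9%. In MGL KO replicate 4, 17 segments had at least 3 of 427 reads, and Ighv10-1 led with 40.7% (36.2% to 45.5%), followed by Ighv9-3 with 25.8%. The other 6 libraries held between 0 and 25 Ighv reads each. MGL KO replicate 4 had fewer reads, so the lower count of segments is not comparable between these libraries, whereas their leading segments differed. Ighv10-1 and Ighv9-3 were also among the main segments of WT replicate 1, at ranks 3 and 4 with 10.5% and 9.57% of its Ighv reads.

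The kappa segments were read more deeply. WT replicate 1 had 15589 Igkv reads, with at least 3 on 76 of the 136 listed segments, and Igkv1-117 led with 10.9% (10.4% to 11.4%). MGL KO replicate 4 had 2546 reads, with at least 3 on 45 segments, and Igkv12-46 led with 14.5% (13.2% to 16.0%). Of the segments with at least 3 reads, 42 were in both libraries, which is 55.3% of those of WT replicate 1 and 93.3% of those of MGL KO replicate 4. MGL KO replicate 1 had 181 Igkv reads, of which Igkv5-39 took 34.8% (28.2% to 42.0%). WT replicate 3 had none. Among lambda segments Iglv1 led in both, with 69.4% of 4380 reads in WT replicate 1 and 94.8% of 232 reads in MGL KO replicate 4. Members of a segment family are similar in sequence, and how the counting divided any reads they share is not given in the sources used here, so single segments are uncertain.

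**Figure D3:**
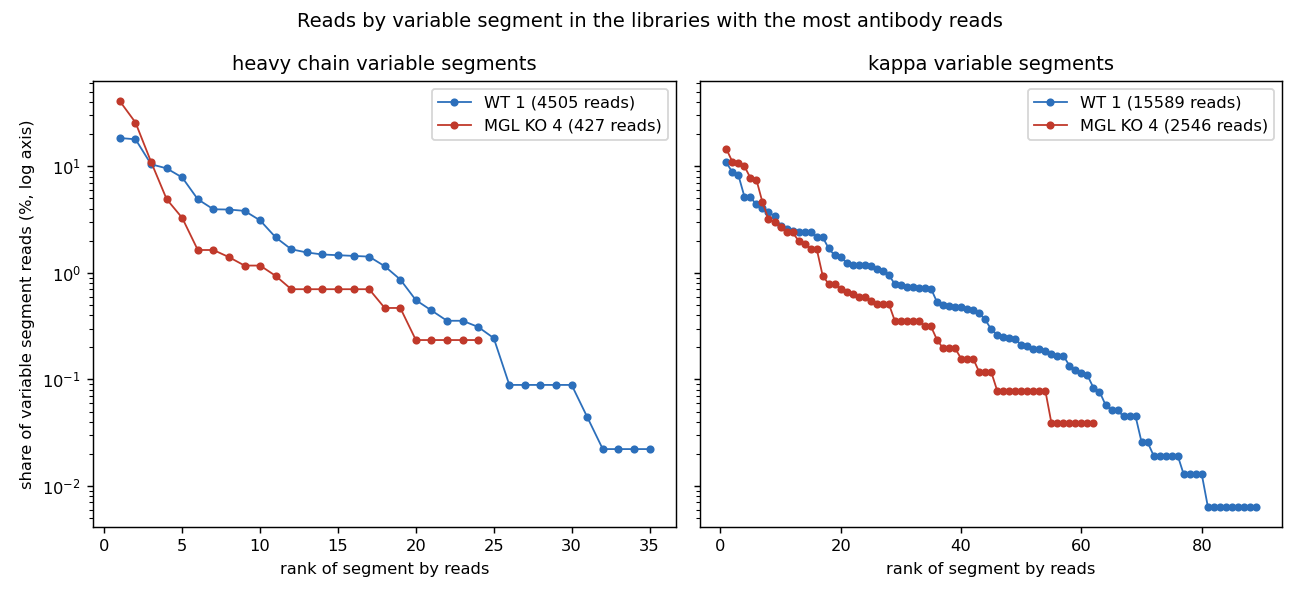
Share of variable segment reads taken by each heavy chain (left) and kappa (right) segment, in percent on a log axis, ordered by rank within WT replicate 1 (blue) and MGL KO replicate 4 (red). The leading heavy chain segment takes 18.4% in WT replicate 1 and 40.7% in MGL KO replicate 4, and the leading kappa segments 10.9% and 14.5%.

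B cell membrane genes were low in most libraries and followed the same pair of libraries, with a smaller spread. Cd79a, a signaling chain of the B cell receptor (chromosome 7, 24596740 to 24601622, plus strand), was at 3.98, 0.993, 0.987 and 10.1 CPM in MGL KO. In WT it was at 34.9, 0.913, 0.920 and 4.37 CPM, so WT replicate 1 was at 7.98 times the next WT library. Its log2 fold change was -1.34 (SE 1.22, adjusted p = 0.756), 0.97 without WT replicate 1 and -0.03 (SE 0.80) without both. Ms4a1, the gene of CD20 (chromosome 19, 11227039 to 11243605, minus strand), had 3.80, 0.271, 0.987 and 7.14 CPM in MGL KO and 21.4, 0.514, 0 and 2.35 CPM in WT. The groups again overlapped. Its log2 fold change was -0.98 (SE 1.41, adjusted p = 0.844), 1.69 without WT replicate 1 and 0.86 (SE 1.18) without both.

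T cell genes were the lowest of the 10, with at most 13 reads per library outside WT replicate 1 for Cd3e and Cd3g, and none of the 4 passed the filter. Cd3e, a chain of the CD3 complex (chromosome 9, 44910037 to 44920925, minus strand), had 0, 0, 2 and 13 reads in MGL KO and 39, 7, 2 and 2 reads in WT. That is at most 0.731 CPM in MGL KO and 2.18 CPM in WT replicate 1. Its neighbour Cd3g (chromosome 9, 44880870 to 44891735, minus strand) had 3, 1, 1 and 8 reads in MGL KO and 62, 7, 1 and 10 reads in WT. WT replicate 1 was the highest library for both chains, and the groups overlapped.

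Both coreceptors were highest in WT replicate 1, followed by MGL KO replicate 4. Cd4, the coreceptor of helper T cells that some macrophages also express (chromosome 6, 124841655 to 124874758, minus strand), had 5, 4, 1 and 42 reads in MGL KO and 109, 8, 1 and 6 reads in WT. Cd8a, of the coreceptor of cytotoxic T cells (chromosome 6, 71350411 to 71356157, plus strand), had 5, 3, 2 and 19 reads in MGL KO and 49, 10, 0 and 4 reads in WT. Both lie on the chromosome of Mgll, at 36.0 Mb and 17.3 Mb from it. In a fit without the filter the log2 fold changes were -1.64 (SE 1.26, adjusted p = 0.675) for Cd3e and -2.46 (SE 1.06, adjusted p = 0.640) for Cd3g. They were -1.16 (SE 1.28, adjusted p = 0.740) for Cd4 and -0.99 (SE 1.11, adjusted p = 0.747) for Cd8a. The sum of the 4 genes had a log2 ratio of group means of -1.47, which was 0.47 without WT replicate 1, -2.84 without MGL KO replicate 4 and -0.90 without both. In the libraries with fewer than 3 reads of a gene a difference was not detectable at this depth.

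None of the 6 tested genes differed between the genotypes at an adjusted p under 0.05, where 0.0471% of all 14864 tested genes did (7 genes, 0.0202% higher and 0.0269% lower in MGL KO). At an unadjusted p under 0.05 there were 2 of the 6, Ighm lower and Igha higher in MGL KO, against 8.65% of all tested genes. For none of the 10 did the libraries of the groups fail to overlap, against 6.02% of all tested genes. Two-sided exact permutation tests of the mean log2 CPM gave p between 0.229 (Igha) and 1 (Cd8a), unadjusted. Leaving out WT replicate 1 turned the direction of Ms4a1, Cd79a, Ighm, Igkc and Jchain, and Igha kept its direction whichever library was left out.

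**Figure D4:**
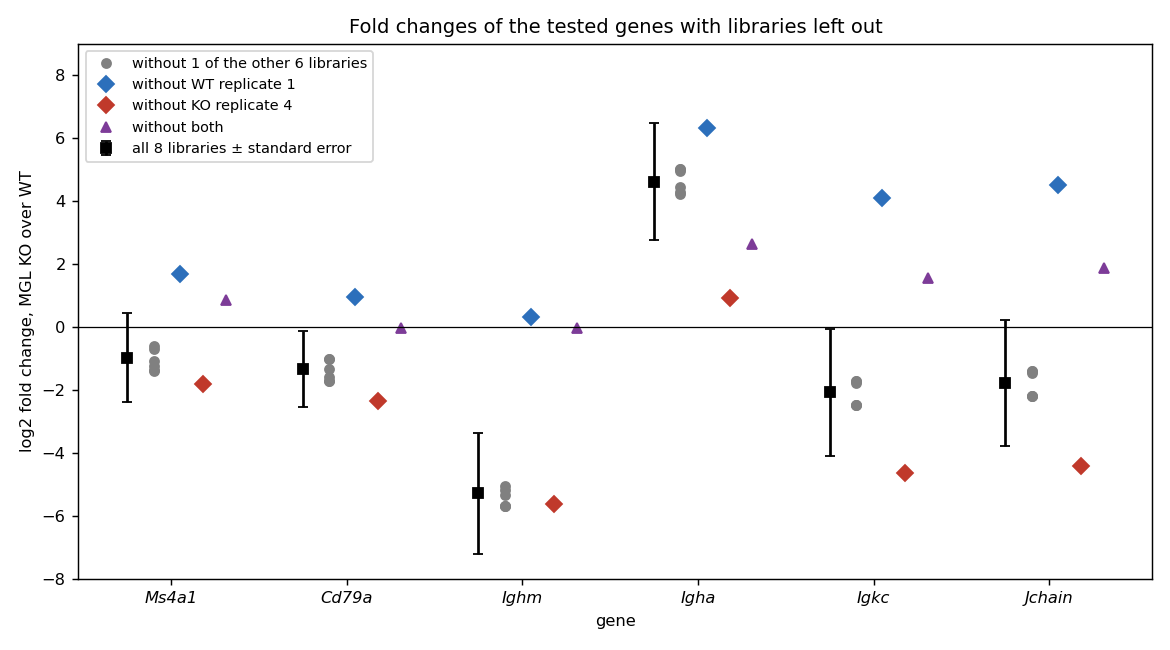
Log2 fold change of MGL KO over WT for the 6 tested genes, with all 8 libraries (squares, bars are the standard error), and with libraries left out (circles, diamonds, triangles). The values of Igkc run from -4.63 without MGL KO replicate 4 to 4.11 without WT replicate 1, and those of Ighm from -5.69 to 0.31.

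Compared per kilobase of exon, Ighm, Igkc and Jchain had the highest medians, and Igha lay below Cd79a. The median over the 8 libraries was 12.9 CPM per kilobase for Ighm and 10.4 for Igkc, followed by Jchain at 2.05, Cd79a at 1.63 and Igha at 1.02. Ms4a1 was at 0.269, and Cd3g, Cd4, Cd8a and Cd3e were between 0.0321 and 0.0890. In WT replicate 1, Ighm reached 2026 and Igkc 1723 CPM per kilobase, and in MGL KO replicate 4 Igkc reached 360 and Igha 164. The ranges of neighbours in this order, such as Ighm and Igkc, or Cd3g, Cd4 and Cd8a, overlapped over the 8 libraries.

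The same pair of libraries held the highest levels of the 10 genes. WT replicate 1 was highest for 9 of the 10, against 14.9% of all tested genes, and the top 2 libraries were WT replicate 1 and MGL KO replicate 4 for 8 of the 10, against 9.50% of all tested genes. Over the 8 libraries, the tested genes most like Igkc by Pearson's r of log2 CPM were Pdia4 (0.988), Rpn1 (0.983), Jchain (0.983), Cd52 (0.982) and Stk4 (0.982). Pdia4 and Rpn1 act in protein folding and glycosylation in the endoplasmic reticulum, and Cd52 is a leukocyte surface antigen. Pdia4 was at 171 CPM in WT replicate 1 and 114 CPM in MGL KO replicate 4, with 42.2 to 72.8 CPM elsewhere. Those most like Cd3e were Irf1 (0.967), H2-Q5 (0.958), Neurl3 (0.956), Btg3 (0.955) and Wrn (0.953), of which Irf1 is an interferon-induced transcription factor and H2-Q5 a class I histocompatibility gene. Each of these 10 genes was highest in WT replicate 1 and next highest in MGL KO replicate 4, the points are the same 8 libraries as above, and the correlations are a description.

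Other genes of the lymphocyte pathways, in 9 lists with 101 genes in the table, gave 59 tested genes, and none was called. Of the 59, 49 had lower and 10 had higher values in MGL KO, with a median log2 fold change of -0.62 against 0.02 over all tested genes, and 3 had an unadjusted p under 0.05, a smaller share than the 8.65% over all tested genes. Over all tested genes 6980 were lower and 7884 higher. Without WT replicate 1 the balance turned, to 20 lower and 41 higher of 61, with a median of 0.31. Without MGL KO replicate 4 it was 56 lower and 4 higher of 60, with a median of -0.97. With WT replicate 1 and MGL KO replicate 4 both left out it was 34 lower and 17 higher of 51, with a median of -0.13.

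B cell genes had 13 of 15 tested members lower in MGL KO, with a median log2 fold change of -0.99, and 10 of 15 higher without WT replicate 1. Without MGL KO replicate 4, 14 of 15 were lower, with a median of -1.61, and without both libraries 9 of 12 were lower, with a median of -0.27. Cd79b, the partner of Cd79a, was at 31.5 CPM in WT replicate 1, 7.19 CPM in MGL KO replicate 4 and at most 4.69 CPM elsewhere. Cd37, a tetraspanin of B cells, was at 61.9 CPM in WT replicate 1 and between 8.66 and 21.4 CPM elsewhere. Ebf1, which stromal cells and adipocytes also express, was between 58.2 and 94.8 CPM in all 8 libraries (log2 fold change -0.03, adjusted p = 0.96).

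Plasma cell and secretion genes had 9 of 12 tested members lower, with a median of -0.67, and 10 of 12 higher without WT replicate 1. Without MGL KO replicate 4, 10 of 12 were lower, with a median of -0.80, and without both libraries 8 of 11 were higher, with a median of 0.12. Pou2af1, the octamer coactivator, was at 50.5 CPM in WT replicate 1, 7.92 CPM in MGL KO replicate 4 and at most 2.74 CPM elsewhere. Txndc5, an endoplasmic reticulum disulfide isomerase, was at 261 CPM in WT replicate 1 and between 64.5 and 98.9 CPM elsewhere. Xbp1 and Sdc1, which epithelia also express, had log2 fold changes of -0.05 and 0.27 (adjusted p = 0.96 and 0.84). Of the other antibody constant regions 3 of 4 tested members were lower, with a median of -0.82. All 4 were higher without WT replicate 1 (median 1.57) and all 4 lower without MGL KO replicate 4 (median -2.27). All 3 still tested were higher without both libraries (median 0.37). Ighg2b was at 65.3 CPM in WT replicate 1, 30.7 CPM in MGL KO replicate 4 and at most 5.39 CPM elsewhere. Iglc1 had 44.3, 4.95 and at most 0.184 CPM in the same order. Ighg2c had the reverse order, at 15.1 CPM in MGL KO replicate 4 and 2.62 CPM in WT replicate 1 (log2 fold change 1.61, SE 0.93, adjusted p = 0.653). Ighg3 was high in WT replicate 1 alone, at 13.2 CPM against at most 1.24 CPM elsewhere (log2 fold change -2.98, SE 1.59, adjusted p = 0.634).

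T cell receptor and signaling genes had all 8 tested members lower, with a median of -0.54, and 6 of 8 higher without WT replicate 1. Without MGL KO replicate 4, 8 of 8 were lower, with a median of -0.86, and without both libraries 6 of 7 were lower, with a median of -0.10. Zap70, the kinase of the CD3 chains, was at 3.24 CPM in WT replicate 1, 1.24 CPM in MGL KO replicate 4 and at most 0.863 CPM elsewhere. Cd28, the costimulatory receptor, had a log2 fold change of -1.18 (SE 0.44, adjusted p = 0.53). Of the cytotoxic and natural killer genes 1 of 12 was tested, and 11 of 12 were highest in WT replicate 1, Ccl5 at 5.47 CPM against at most 0.522 CPM elsewhere. The gamma delta chain gene Trgc1 was at most at 0.843 CPM in any library.

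Helper, regulatory and naive T cell genes had 7 of 8 tested members lower, with a median of -0.76, and 2 with an unadjusted p under 0.05 (8.65% of all tested genes). Without WT replicate 1, 5 of 8 were lower (median -0.06), and without MGL KO replicate 4 this was 8 of 9 (median -0.92). Without both libraries 6 of 8 were lower (median -0.48). Ctla4, an inhibitory receptor of regulatory and activated T cells, was at 0.857, 0.722, 0.678 and 1.46 CPM in MGL KO and at 2.57, 1.60, 2.24 and 1.56 CPM in WT. Il2ra, a chain of the interleukin-2 receptor, was at 0.918, 0.812, 1.79 and 0.955 CPM in MGL KO and at 1.90, 1.94, 2.37 and 2.93 CPM in WT. The groups did not overlap for these genes and for Cd28, which are 3 of the 59 tested genes of the 9 lists (5.08%), near the 6.02% of all tested genes. Neither passed the test, with log2 fold changes of -1.08 (SE 0.34, adjusted p = 0.499) for Ctla4 and -1.02 (SE 0.33, adjusted p = 0.503) for Il2ra.

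Genes of lymphoid tissue and of IgA transport were high in different libraries. All 4 tested lymphoid genes were lower in MGL KO (median -0.77), 2 of 4 without WT replicate 1 (median 0.20) and 3 of 3 without both libraries (median -0.46). Of 6 tested IgA transport, homing and class switching genes 3 were lower (median -0.06), 2 of 8 without WT replicate 1 (median 0.29) and 6 of 6 without both libraries (median -0.19). Without MGL KO replicate 4, 4 of 4 lymphoid genes (median -1.92) and 6 of 6 IgA transport, homing and class switching genes (median -0.52) were lower. Cxcl13, the chemokine that gathers B cells into follicles, was at 51.0 CPM in WT replicate 1 and between 0.197 and 4.33 CPM elsewhere (log2 fold change -2.73, SE 1.29, adjusted p = 0.60). Ccl21a, a chemokine of lymphatic vessels and lymph nodes, was between 6.23 and 29.5 CPM. Pigr, the IgA and IgM transporter, was at 542 CPM in MGL KO replicate 4 and at most 2.88 CPM, in MGL KO replicate 1, elsewhere. The thymus list summed to 20.2 CPM in WT replicate 1 and to 18.6 to 34.8 CPM over all libraries, most of it from Arpp21 (17.8 CPM in WT replicate 1), and the recombinase genes Rag1 and Rag2 had at most 3 reads in any library.

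**Figure D5:**
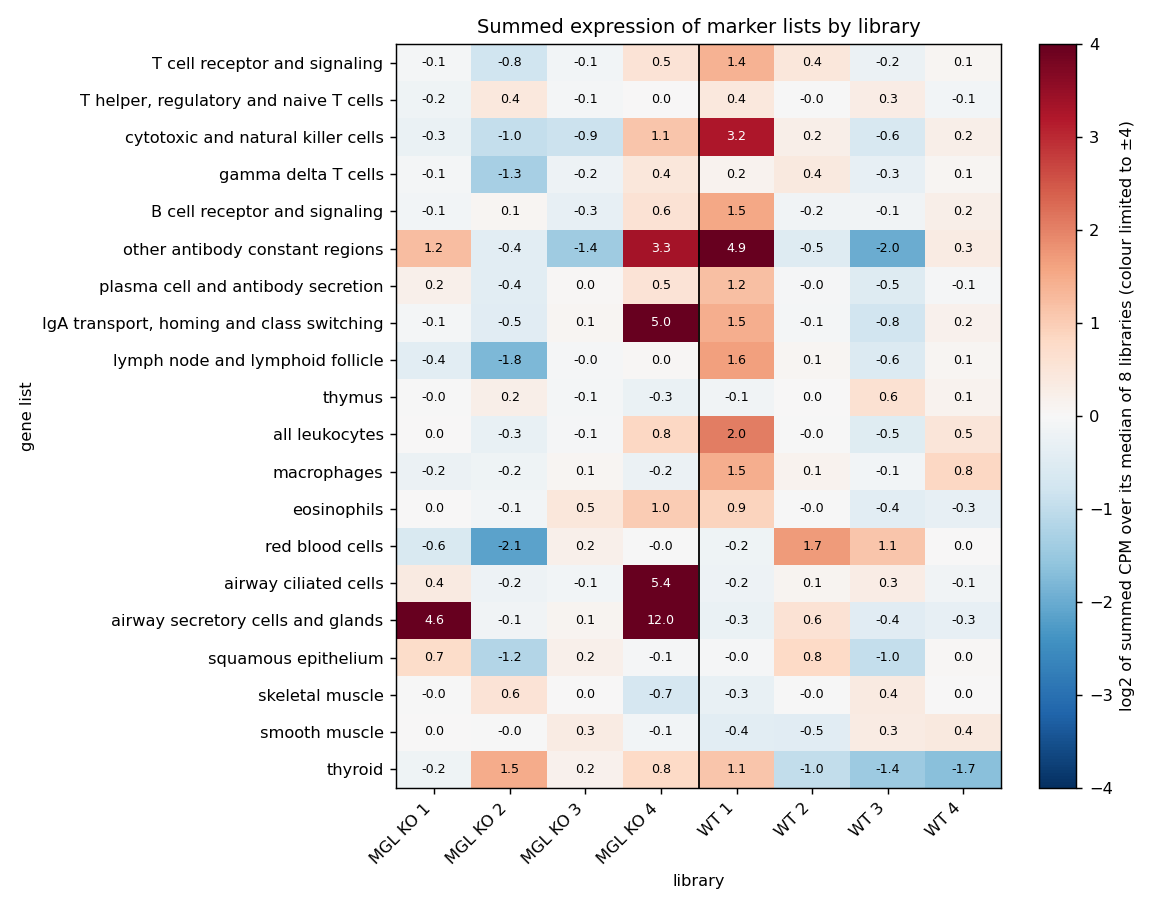
Summed CPM of each gene list in each library, as log2 of the sum plus 0.5 over its median of the 8 libraries. Columns are libraries, MGL KO left and WT right of the line, rows are lists, and the colour is limited to ±4. Lists of T cell receptor, B cell, plasma cell and cytotoxic cell genes and of all leukocytes are highest in WT replicate 1, and those of airway cells and IgA transport in MGL KO replicate 4.

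Other leukocytes moved with the lymphocyte genes in WT replicate 1. Macrophage genes were summed at 638 CPM there, against 216 to 406 CPM in the other WT libraries and 197 to 245 CPM in MGL KO, and 7 of 8 were highest in it. All 8 were tested and had lower values in MGL KO, with a median log2 fold change of -0.89, none called and 7 with an unadjusted p under 0.05 (8.65% of all tested genes). Without WT replicate 1 the median was -0.47 with all 8 lower and 3 at an unadjusted p under 0.05. Without both libraries it was -0.43 with all 8 lower and 1 at that threshold. Eosinophil genes were near the limit of detection, with Epx at 0 counts in all 8 libraries and the list summed at 0.394 to 1.97 CPM. Red blood cell genes had all 4 tested members lower in MGL KO (median -1.37, none called, 3 with an unadjusted p under 0.05), summed at 29.6 to 150 CPM in MGL KO and 115 to 431 CPM in WT, and WT replicate 1 held the lowest of the WT sums. The part of these cells in the lymphocyte gene values was not tested.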

How the data were processed

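RNA of 8 mouse esophagi libraries (4 MGL KO, 4 MGL WT, grouped by their labels) was sequenced after poly(A) selection. Per the labels and the study's methods, the authors used FastQC 0.11.9, Cutadapt and STAR 2.7.10b against GRCm39, and deposited raw counts per gene symbol. Annotation, counting tool and strand are not given in the sources used here. The 10 genes and the lists were chosen with earlier results of these data known.

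Of 22721 genes with a count, 14864 passed filterByExpr of edgeR 4.0.16 (minimum count 10) in R 4.3.3. They were TMM-normalized and compared by the quasi-likelihood test with Benjamini-Hochberg adjustment over all tested genes and a threshold of 0.05. The standard error is the log2 fold change over the square root of F. Log2 CPM used a prior count of 1. Alternatives were the exact test of edgeR, which the study names, DESeq2 1.42.0 and limma 3.58.1. On simulated counts for 14741 genes, the main test recovered 73.5% of 200 changed genes, and 2% of its calls were false. The share of false calls was 18.6% with the exact test and 20.7% with DESeq2. No simulated library was made to stand apart from its group, so these shares do not carry over to the 10 genes. Permutation tests used SciPy 1.17.1.

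Gene positions came from GENCODE M39 on GRCm39 (93.6% of symbols found), and sequences from the GRCm39 genome. Named genes were Mgll, the 10 genes, the segment with the most reads in each library, the 5 genes most correlated with Igkc and with Cd3e, and, of each list, the called genes, up to 3 with the highest mean CPM and up to 2 with the largest fold change. Epx, Rag1, Rag2, Ctla4, Il2ra, Ighv1-53 and Ighv9-3 were named after their values were seen. No value column was left unmapped. No 2 libraries of a group were alike within sampling noise (chi-square per degree of freedom 13.6 or more). Some genes that the rule names are not reported here.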

Additional observations from a re-analysis of the deposited data

Results flagged for a closer look

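In 28 of 70 groups of 4 libraries, 1 library lay farther from the other 3 than Dixon's 95% critical value allows, where chance would give about 3.5. Of the 28, 16 were WT replicate 1 and 10 were MGL KO replicate 4, and the groups are not independent of each other. The figure of 3.5 assumes normally distributed values. The lists were chosen with earlier results of these data known, and sums are counted beside their own genes, so 28 against 3.5 is no test.

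WT replicate 1 stood apart from the other WT libraries for Cd3e (2.18 CPM), Cd4 (6.08 CPM), Ms4a1 (21.4 CPM), Cd79a (34.9 CPM), Ighm (3821 CPM), Igkc (917 CPM) and Jchain (704 CPM). It did so for the sums of the antibody genes (5457 CPM), T cell genes (14.4 CPM) and B cell genes (56.2 CPM) as well. Among the lists it stood apart for cytotoxic and natural killer cells (24.9 CPM), B cell receptor and signaling (352 CPM), other antibody constant regions (180.3 CPM), plasma cell and antibody secretion (891 CPM), lymph node and lymphoid follicle (98.3 CPM) and thyroid (4.80 CPM).

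MGL KO replicate 4 stood apart from the other MGL KO libraries for Cd3e (0.731 CPM), Cd4 (2.36 CPM), Igha (437 CPM), Igkc (191 CPM) and Jchain (182 CPM), and for the sums of the antibody genes (850 CPM) and T cell genes (4.61 CPM). Its summed IgA transport list was at 598 CPM, airway ciliated cells at 624 CPM and airway secretory cells and glands at 11569 CPM.

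MGL KO replicate 3 stood apart for macrophages (245 CPM), and WT replicate 2 for airway secretory cells and glands (3.88 CPM). The cause was not tested for any of these.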

How the results depend on the processing

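No gene of the 10 or of the 9 lymphocyte lists that an alternative tested was called in it, over 19 alternatives. The 4 T cell genes were tested in the 2 fits without the filter alone. The count of called genes over the whole table, 7, was 64 with the exact test on filtered genes, 42 with it on all genes, 138 with DESeq2, 25 with limma-voom and sample quality weights, and 2 without the filter, with the replicate block, with robust estimation and with WT replicate 1 and MGL KO replicate 4 both left out. It ranged from 2 to 5 with 1 library left out. Robust estimation and leaving out both libraries were chosen after seeing the data.

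The log2 fold changes of Ms4a1, Igkc and Jchain turned positive with sample quality weights (0.77, 0.71 and 0.84), with the replicate block (0.30, 1.45 and 1.20) and without both libraries (0.86, 1.55 and 1.87). Those of Ighm, Igha and Cd79a kept their sign but were smaller with sample quality weights (-1.06, 2.26 and -0.22) and with the replicate block (-0.83, 2.32 and -0.40). Leaving out 1 library gave -1.81 to 1.69 for Ms4a1, -2.34 to 0.97 for Cd79a, -5.69 to 0.31 for Ighm, 0.92 to 6.33 for Igha, -4.63 to 4.11 for Igkc, -4.43 to 4.51 for Jchain and -4.91 to 3.20 for the antibody sum. The value that turned each sign was that without WT replicate 1.

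DESeq2 gave no adjusted p for Cd79a, Ighm, Igha, Igkc and Jchain, so it could not call them. With at least 10 counts in every library, Cd79a and Ighm were the only ones of the 10 left to test. The replicate numbers share only a number: deviations of same-numbered libraries correlated at -0.14, -0.28, -0.14 and 0.08.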
